A study of Homo sapiens with 9 samples.

Results

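The comparison described here sets siALKBH5#3 against siALKBH5#1, 2 siRNAs of different sequence that target the same gene, ALKBH5, in PC9 cells. PC9 is a human lung adenocarcinoma line with an activating EGFR deletion. All cells were transfected with siRNA at 15 nM, and total RNA was taken 96 h later and hybridised to Clariom S arrays. The arrays were taken by their group labels. They are the 3 arrays of siALKBH5#3 and the 3 arrays of siALKBH5#1, 6 of the 9 arrays in the series. The 3 arrays of siControl, a negative control siRNA that the study also calls siNC, took no part in the tests and served only to say on which side the control level lay. The labels number the samples of each group as biological repeats but give no origin of the cultures, and the spread behind each p-value may therefore be technical.

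An siRNA guides the AGO proteins to an RNA that matches it along its whole length, and that RNA is cut. A guide can also lower RNAs that match only its seed, the bases near its 5′ end, so that siRNAs of different sequence are used side by side to tell the shared effect of a target from effects of each sequence. ALKBH5 is an enzyme that erases N6-methyladenosine (m6A), the most common internal mark of mRNA. The siRNA sequences were not used here, and matches of their seeds to the genes described were not tested.

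Cells given the 2 siRNAs differed widely. With siALKBH5#3, 20 of 24 genes of cholesterol synthesis, 20 of 29 NRF2 target genes, 11 of 23 of fatty acid synthesis and 10 of 20 ERK feedback genes and targets were lower than with siALKBH5#1. Of the YAP and TEAD target genes 7 of 11 were higher, and of the ATF4 target genes 19 of 40. By limma, 4299 of 21448 transcript clusters (20.0%) passed an adjusted p of 0.05. A transcript cluster is the group of probes that stands for a gene on this array. Of these, 2156 (10.1%) were higher with siALKBH5#3 and 2143 (9.99%) were lower. The median difference over all clusters was -0.001 on the log2 scale. Of the calls, 2714 were over 1.5-fold (1361 higher, 1353 lower), 829 were over 2-fold (407 higher, 422 lower) and 97 were over 4-fold (42 higher, 55 lower). The smallest called fold was 1.26 and the median called fold was 1.59. In 4286 of the 4299 calls the arrays of the 2 groups did not overlap, which held for 36.1% of all clusters. Calls were more common among bright clusters, with 3725 among clusters brighter than the median and 574 among dimmer ones, so a list of bright genes is better read against the 35.5% called among genes brighter than the median (17.8% higher, 17.7% lower).

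The arrays were alike in overall level and tight within groups. The 9 arrays had median intensities of 102.7 to 105.2, and within groups Pearson's r across clusters, on the log2 scale, was 0.9939 to 0.997. It was 0.9876 to 0.9891 between siALKBH5#1 and siALKBH5#3, 0.991 to 0.9925 between siALKBH5#1 and siControl, and 0.9889 to 0.9907 between siALKBH5#3 and siControl. The lowest of these correlations, 0.9876, was between arrays of the 2 siRNAs against the same gene, although its range overlapped that of siALKBH5#3 with siControl. In a principal component analysis of the 6 arrays, the first component held 64.9% of the variance, with the siALKBH5#1 arrays at -33.6 to -31.4 and the siALKBH5#3 arrays at 31.3 to 33.6.

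**Figure D1:**
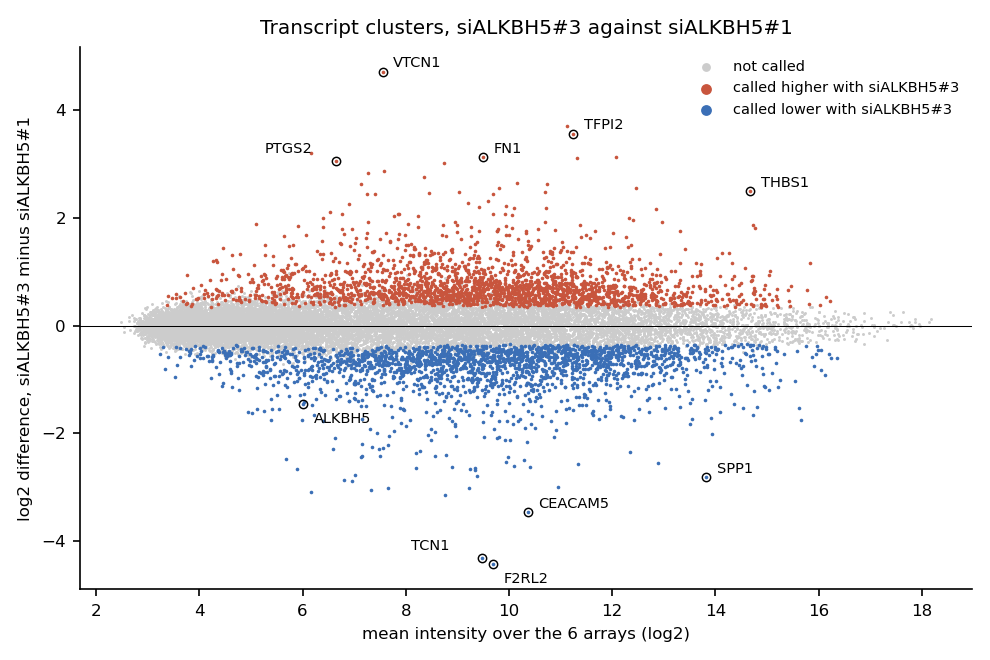
Each point is a transcript cluster, with its mean intensity over the 6 arrays (log2) on the x axis and its log2 difference, siALKBH5#3 minus siALKBH5#1, on the y axis. Called clusters are coloured, and the 2156 higher and 2143 lower calls spread about evenly over both sides of 0, with VTCN1 at 4.72 and F2RL2 at -4.43.

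The siControl level was then placed along the line from siALKBH5#1 to siALKBH5#3 for each called cluster. A value within 0.25 of the distance from a group's mean was taken as near that group, and a value in the range between them as between. The siControl level was near siALKBH5#1 in 1336 calls (31.1%), so that there siALKBH5#3 stood apart, and near siALKBH5#3 in 677 calls (15.7%). In 1702 calls (39.6%) it lay between, with siALKBH5#1 on 1 side and siALKBH5#3 on the other. It lay beyond siALKBH5#1 in 410 calls (9.54%) and beyond siALKBH5#3 in 174 calls (4.05%), where both siRNAs differed from siControl in the same direction. Among the 829 calls over 2-fold, 394 (47.5%) had siControl between. In 892 calls all 3 siControl arrays lay inside the gap between the arrays of the 2 siRNAs, 418 of them higher and 474 lower with siALKBH5#3. These shares describe clusters that were selected for a difference between the siRNAs, and have no test.

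**Figure D2:**
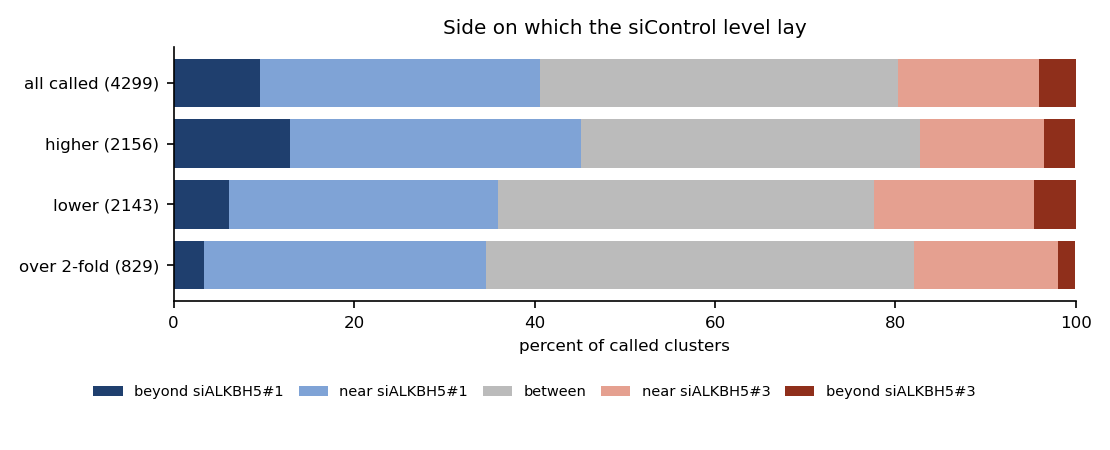
Bars show the percent of called clusters in each class of the siControl level, for all 4299 calls, the 2156 higher, the 2143 lower and the 829 over 2-fold. The grey segment, with siControl between the siRNAs, is the widest in all 4 bars at the limit of 0.25, at 39.6% of all calls and 47.5% of those over 2-fold. With the limit at 1/3 of the distance, near siALKBH5#1 was the most common class at 40.5% of all calls, and between fell to 27.0%.

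ALKBH5 itself was examined as a check of the labels. Its cluster (TC1700007102.hg.1; GRCh38 chromosome 17, 18183828 to 18209954) had intensities of 112, 96.7 and 113 on the siALKBH5#1 arrays and of 56.8, 30.0 and 34.8 on the siALKBH5#3 arrays. The siControl arrays gave 2815, 3308 and 2361. All arrays of both siRNAs lay far below all siControl arrays, and the siALKBH5#3 arrays lay below the siALKBH5#1 arrays. ALKBH5 was 2.74-fold lower with siALKBH5#3 (95% confidence interval 1.97 to 3.81, adjusted p = 0.00122), a difference between dim values at the 49.1st to 50.8th percentile of clusters with siALKBH5#1 and at the 31.0th to 42.1st with siALKBH5#3. The methods' t-test, with a Benjamini-Hochberg adjustment added here, gave an adjusted p of 0.0543 for it. The methods' own threshold is an unadjusted p under 0.01 with a fold over 1.5. That threshold was applied here only to the count of calls. How much of any difference below goes with the unequal remaining ALKBH5 signal was not tested.

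The other ALKBH demethylases and the m6A enzymes were looked at next. Of 8 measured members of the ALKBH family with FTO, 4 were lower with siALKBH5#3, ALKBH5 included, and none was higher. By the methods' t-test with the added Benjamini-Hochberg adjustment only ALKBH2 was called (adjusted p = 0.017), with ALKBH6 at 0.096 and ALKBH7 at 0.147. ALKBH2, which repairs alkylated DNA, had intensities of 1042, 1158 and 1035 with siALKBH5#1 and of 553, 584 and 468 with siALKBH5#3 (2.02-fold lower, adjusted p = 0.000461), and siControl lay between at a mean of 757. ALKBH6 was 1.94-fold lower (adjusted p = 0.00649) with siControl near siALKBH5#3, and ALKBH7 1.60-fold lower (adjusted p = 0.023), a call that was lost without each of 4 single arrays. FTO, the other m6A demethylase, had means of 5745 and 5529 (adjusted p = 0.808).

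Of 12 m6A writers, 2 were higher and 1 was lower. VIRMA, the scaffold of the methyltransferase complex, had intensities of 512, 347 and 524 with siALKBH5#1, 898, 1049 and 1146 with siALKBH5#3 and 928, 940 and 1015 with siControl. It was 2.26-fold higher with siALKBH5#3 (interval 1.72 to 2.97, adjusted p = 0.00134), and the siALKBH5#1 arrays were the ones that stood apart. The calls of RBM15B (1.44-fold higher) and PCIF1, which methylates adenosine next to the cap (1.39-fold lower), had adjusted p of 0.0458 and 0.0198, and without siALKBH5#1 replicate 3, siALKBH5#3 replicate 1 or siALKBH5#3 replicate 3 only 1 writer was called. Of 10 m6A readers, FMR1 and YTHDC1 were higher (20.0% called, under the 21.5% of all genes). FMR1 had means of 3459 with siALKBH5#1, 6670 with siALKBH5#3 and 5920 with siControl (1.92-fold, adjusted p = 0.000799), and the call of YTHDC1 (1.34-fold, adjusted p = 0.0355) was lost without replicate 1 or 2 of either siRNA.

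The 15 highest called differences ran from 5.64-fold to 26.3-fold. VTCN1, the inhibitory ligand B7-H4 of T cells (TC0100015417.hg.1; GRCh38 chromosome 1, 117143587 to 117210927), had intensities of 44.4, 24.6 and 45.2 with siALKBH5#1, 1039, 918 and 944 with siALKBH5#3 and 320, 265 and 291 with siControl. The 3 groups did not overlap, and siControl lay between. VTCN1 was 26.3-fold higher with siALKBH5#3 (95% confidence interval 18.8 to 36.9, adjusted p = 3.01e-06), a fold that rests on dim siALKBH5#1 values at the 25.7th to 38.7th percentile of clusters, which were not shown to lie above background. TFPI2, a Kunitz-type inhibitor of serine proteases, had 657, 707 and 751 with siALKBH5#1, 7929, 8566 and 8554 with siALKBH5#3 and 3183, 3617 and 4404 with siControl. It was 11.9-fold higher (9.98 to 14.1, adjusted p = 1.16e-06), again with siControl between and no overlap.

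For other genes at the top, siControl stayed with siALKBH5#1. FN1, which encodes fibronectin, had 277, 168 and 308 with siALKBH5#1, 2444, 1903 and 2086 with siALKBH5#3 and 166, 227 and 253 with siControl. OLR1, a scavenger receptor for oxidised low-density lipoprotein, had 1423, 1560 and 1396 against 12277, 12233 and 13954, with siControl at 1284, 1387 and 1165. PTGS2, the inducible cyclooxygenase of prostaglandin synthesis, had 30.7, 37.1 and 36.8 against 235, 335 and 304, with siControl at 44.9, 35.2 and 40.2. In all of these, the siALKBH5#3 arrays alone were high. The folds were 8.78 for FN1 (6.30 to 12.2, adjusted p = 1.75e-05), 8.78 for OLR1 (7.35 to 10.5, adjusted p = 1.65e-06) and 8.30 for PTGS2 (6.53 to 10.5, adjusted p = 3.7e-06). IGFBP5, which binds insulin-like growth factors, was 9.26-fold higher and GABBR2, a subunit of the GABA-B receptor, 7.16-fold higher, both with siControl near siALKBH5#1 and from dim siALKBH5#1 means of 23.9 and 57.8.

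DDAH1, which degrades methylated arginines, showed the reverse arrangement. Its intensities were 921, 876 and 814 with siALKBH5#1, 7032, 8258 and 7335 with siALKBH5#3 and 5219, 5332 and 4820 with siControl, so that the siALKBH5#1 arrays stood farthest from the others (8.65-fold, 7.22 to 10.4, adjusted p = 1.65e-06). SEMA7A, a membrane-anchored semaphorin, had means of 691 and 4233 against 349 in siControl, so that both siRNAs lay above siControl and siALKBH5#3 farther (6.19-fold, adjusted p = 9.38e-06). The brightest of the 15 highest was THBS1, the matrix protein thrombospondin 1, with 10261, 11048 and 11804 against 57962, 63146 and 65685 and siControl between at 22717, 24560 and 28156 (5.64-fold, 4.73 to 6.74, adjusted p = 3.01e-06). The remaining members of the 15 were the cytokine IL32 (8.09-fold), the endothelial and epithelial surface protein HEG1 (6.78-fold), the mitotic and inflammasome kinase NEK7 (6.30-fold), the chromatin factor ARID5B (5.88-fold) and the surface glycoprotein CD24 (5.85-fold). In these, siControl lay between.

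The lowest differences were led by F2RL2, the protease-activated receptor PAR3 (GRCh38 chromosome 5). Its intensities were 3812, 4265 and 3463 with siALKBH5#1, 271, 171 and 121 with siALKBH5#3 and 509, 467 and 741 with siControl, and it was 21.6-fold lower (14.7 to 31.8, adjusted p = 6.96e-06). TCN1, the vitamin B12 carrier haptocorrin, had 2845, 3227 and 3458 against 158, 204 and 124, with siControl at 584, 551 and 710 (19.9-fold lower, 15.1 to 26.2, adjusted p = 1.82e-06). CEACAM5, the carcinoembryonic antigen, had 4917, 3879 and 4433 against 536, 382 and 306, with siControl at 1118, 1118 and 991 (11.1-fold lower, 8.16 to 15.0, adjusted p = 6.96e-06). In each of these genes all siControl arrays lay in the gap between the 2 siRNAs. The related CEACAM6 was 3.15-fold lower at a much brighter signal, with means of 48154 and 15293 and siControl at 30212.

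In other genes of the 15 lowest, the siALKBH5#1 arrays stood apart. COL8A1, a short-chain collagen, had 1375, 1142 and 1381 with siALKBH5#1, 165, 120 and 158 with siALKBH5#3 and 165, 141 and 91.1 with siControl. SCG2, a secretogranin, had 161, 189 and 110 against 21.2, 23.9 and 25.7, with siControl at 26.0, 15.8 and 21.9. In COL8A1 (8.86-fold lower, adjusted p = 3.51e-06) and SCG2 (6.36-fold lower, adjusted p = 2.18e-05) the siALKBH5#1 arrays alone were high, whereas siALKBH5#3 and siControl overlapped. LOX, the enzyme that cross-links collagen, which was not among the 15, had the same arrangement, with means of 364, 88.7 and 104 for siALKBH5#1, siALKBH5#3 and siControl (3.98-fold lower, adjusted p = 0.000501). SPP1, which encodes the secreted phosphoprotein osteopontin, was the brightest of the 15 lowest, with 38569, 37279 and 38774 against 5513, 5630 and 5261 and siControl at 11412, 11427 and 10131 (6.99-fold lower, 5.95 to 8.21, adjusted p = 1.65e-06).

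The others of the 15 lowest were the sodium-coupled inositol transporter SLC5A11 (8.47-fold), the lipase ABHD3 (8.29-fold), the calpain CAPN8 (8.04-fold), TMEM255A (8.01-fold), the amino acid transporter SLC7A8 (7.37-fold), the annexin ANXA10 (7.25-fold), the leukotriene hydroxylase CYP4F3 (6.91-fold), the membrane progestin receptor PAQR5 (6.38-fold) and GRPR, the receptor of gastrin-releasing peptide (6.31-fold). In all 9, siControl lay between the siRNAs.

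**Figure D3:**
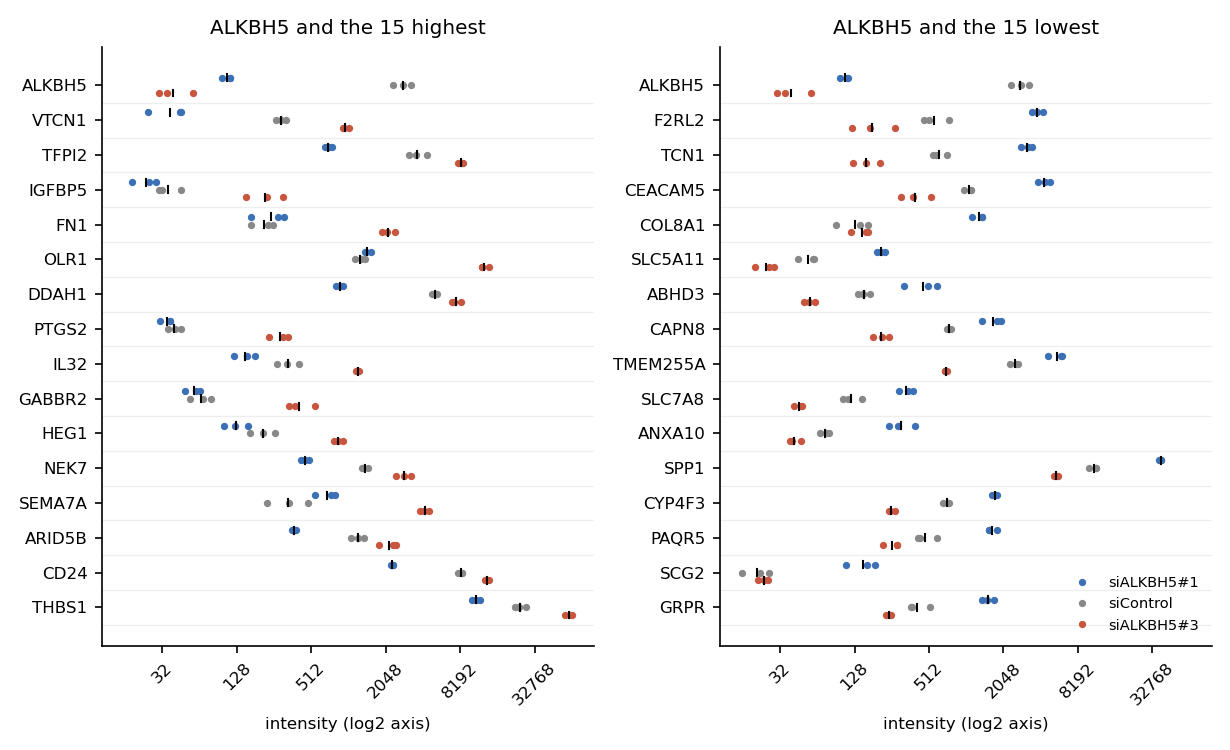
Intensity on each array (log2 axis) of ALKBH5 and of the 15 highest and 15 lowest called genes, with a point per array and a black tick at the geometric mean of each group of 3. Blue siALKBH5#1 and red siALKBH5#3 points do not overlap in any gene shown, and grey siControl points lie between them for VTCN1 and F2RL2, beside siALKBH5#1 for FN1 and OLR1, and beside siALKBH5#3 for COL8A1 and SCG2.

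Some genes lay well away from siControl on opposite sides with the 2 siRNAs. Beside those above, ID3, MYL9, CLIC3, STEAP1 and CA12 were among the 8 genes in each direction with the farthest such distances. ID3, an inhibitor of basic helix-loop-helix factors, had 244, 246 and 181 with siALKBH5#1, 522, 476 and 494 with siControl and 1428, 1312 and 1021 with siALKBH5#3. Its log2 differences from siControl were -1.17 with siALKBH5#1 and 1.32 with siALKBH5#3. CA12, a carbonic anhydrase of the cell surface, had 688, 807 and 714 with siALKBH5#1, 271, 308 and 338 with siControl and 164, 104 and 94.3 with siALKBH5#3 (differences from siControl of 1.27 and -1.38). MYL9, a myosin light chain of stress fibres, and the chloride channel protein CLIC3 were 4.55-fold and 5.49-fold higher with siALKBH5#3 than with siALKBH5#1, and STEAP1 was 6.15-fold lower.

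Cholesterol synthesis was lower with siALKBH5#3 nearly throughout. When sterol is scarce, SCAP carries the transcription factor SREBP2 from the endoplasmic reticulum to the Golgi, where it is cut and released to turn on the enzymes of the pathway, and INSIG proteins hold it back when sterol is plentiful. Of 24 measured genes of synthesis, transport and regulation, 20 were lower (83.3%, against 9.99% of all clusters and 17.7% of genes brighter than the median), none was higher and the median log2 difference was -1.32. The enzymes of the mevalonate part gave 6 of 7 lower and those of the sterol part 10 of 10. In 15 of the 20 calls siControl was near siALKBH5#1.

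INSIG1, itself a target of SREBP2, had 1710, 1795 and 1857 with siALKBH5#1, 368, 428 and 477 with siALKBH5#3 and 1957, 1648 and 2087 with siControl (4.24-fold lower, 3.48 to 5.15, adjusted p = 1.04e-05). HMGCS1, which makes the precursor of mevalonate, had 6602, 6696 and 7017 against 1945, 2270 and 2794, with siControl at 5762, 6202 and 5226 (2.93-fold lower, 2.35 to 3.66, adjusted p = 9.63e-05). HSD17B7, a reductase of the sterol part, had 2405, 2246 and 2451 against 451, 452 and 406, with siControl at 1916, 1372 and 1960 (5.43-fold lower, adjusted p = 3.01e-06). The siALKBH5#3 arrays lay far below both other groups in these genes. ACAT2, which joins acetyl-CoA units, and the lanosterol demethylase CYP51A1 were 3.21-fold and 3.17-fold lower. Of the 5 regulators measured 2 were lower, INSIG1 included. SREBF2, the gene of SREBP2, had means of 3759 and 3335 (adjusted p = 0.399) and SCAP of 2722 and 2262 (adjusted p = 0.166).

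Fatty acid synthesis followed in part. Of 23 genes, 11 were lower and 2 higher, with a median of -0.36 (56.5% called, against 21.5% of all genes and 35.5% of genes brighter than the median). SCD, which desaturates stearate, had 29095, 27020 and 27501 with siALKBH5#1, 9235, 8804 and 7568 with siALKBH5#3 and 31834, 35655 and 27962 with siControl (3.28-fold lower, 2.73 to 3.94, adjusted p = 1.9e-05). ACSS2, which makes acetyl-CoA from acetate, had 1053, 793 and 1246 against 195, 198 and 184, with siControl between at 619, 657 and 547 (5.27-fold lower, adjusted p = 1.66e-05). The elongase ELOVL6 (2.52-fold), the acyl-CoA synthetase ACSL1 (2.48-fold) and the acetyl-CoA carboxylase ACACA (2.45-fold) were lower too, with siControl near siALKBH5#1. The related desaturase SCD5, named here after its values were seen, went the other way, at means of 3654 and 7821 with siControl at 3965 (adjusted p = 0.0017).

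Of 6 measured LXR genes, which include the oxysterol receptor NR1H3 and its targets, 3 were lower and none was higher. The sterol exporter ABCA1 had 1081, 964 and 1041 against 608, 510 and 494, with siControl at 1334, 1198 and 1228 (1.92-fold lower, adjusted p = 0.000645). The phospholipid acyltransferase LPCAT3 was 2.10-fold lower (adjusted p = 0.000985), and the call of NR1H3 (1.45-fold lower, adjusted p = 0.034) was lost without each of 5 single arrays.

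**Figure D4:**
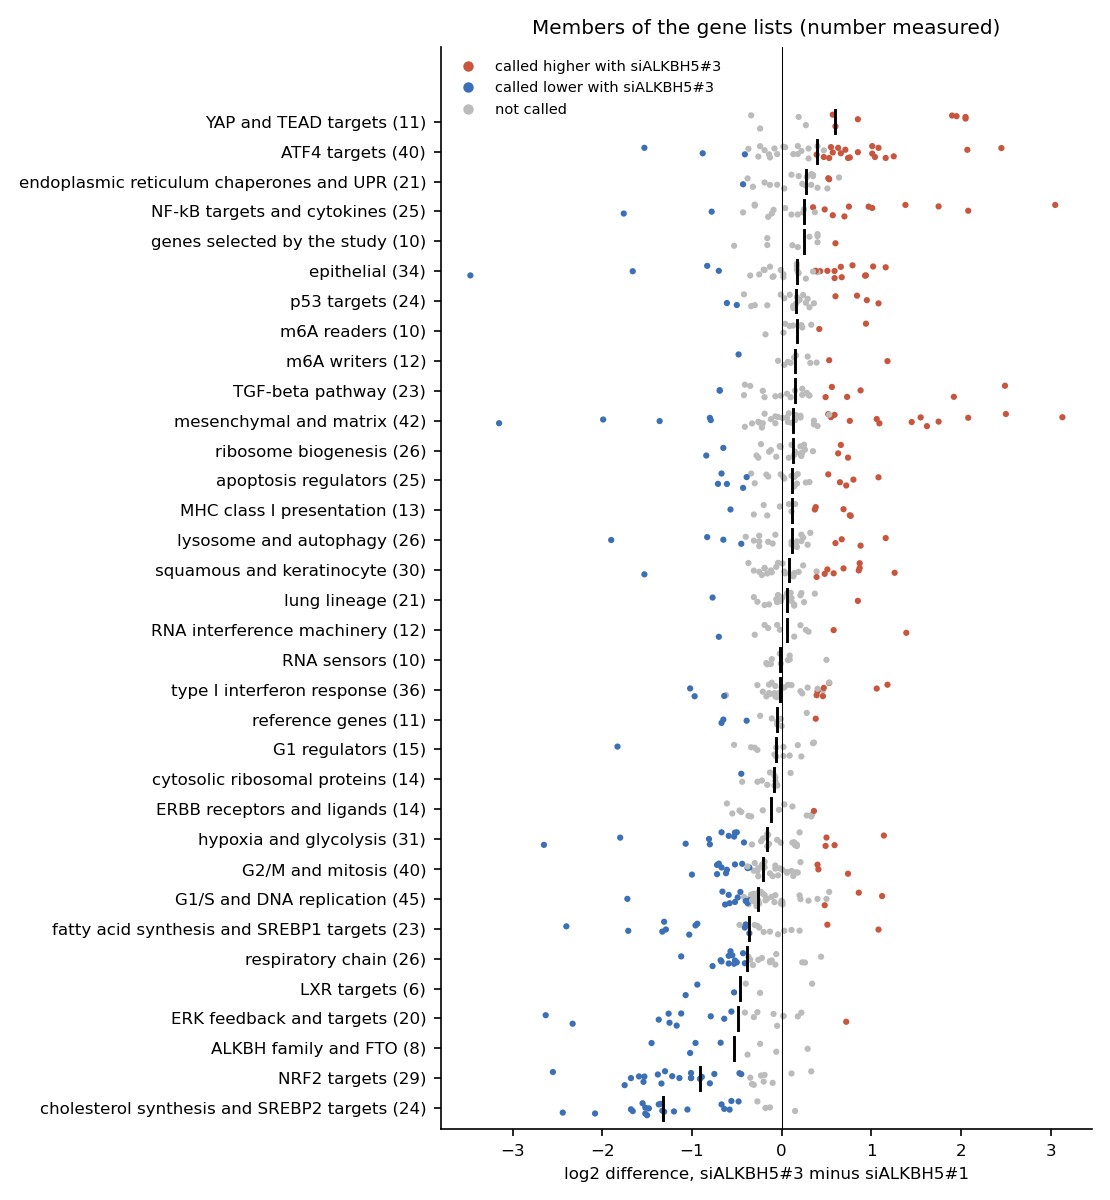
Log2 difference, siALKBH5#3 minus siALKBH5#1 (x axis), of each measured member of the gene lists (rows, ordered by their median, number measured in parentheses), with a black line at the median. The list of cholesterol genes lies lowest at a median of -1.32, followed by NRF2 targets at -0.91, and the YAP and TEAD targets lie highest at 0.60.

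**Figure D5:**
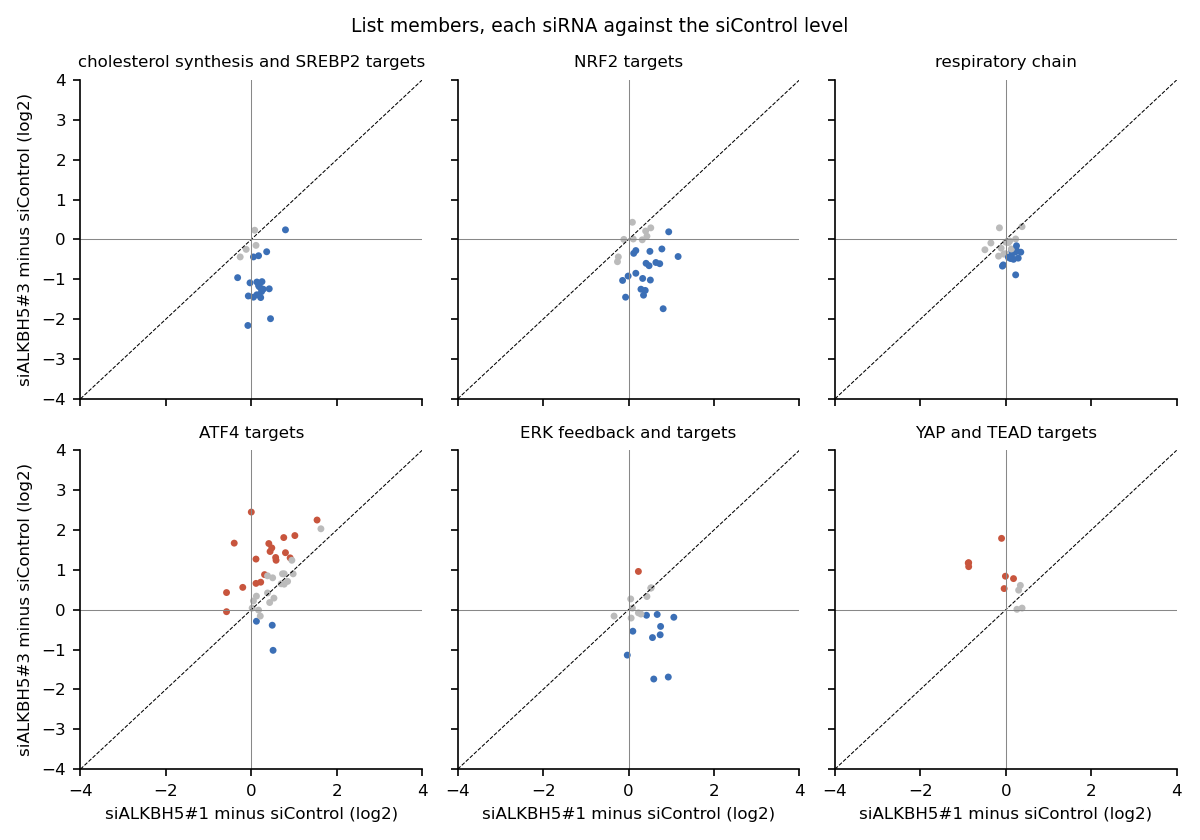
Members of 6 lists by their log2 difference from siControl with siALKBH5#1 (x axis) and with siALKBH5#3 (y axis), coloured as called higher (red), called lower (blue) or not called (grey) between the siRNAs, with equal values on the dashed line. Cholesterol genes lie near 0 on the x axis and below 0 on the y axis (medians 0.15 and -1.12), whereas most ATF4 targets lie above 0 on both (medians 0.46 and 0.82). Both axes share the same siControl arrays.

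Most NRF2 target genes were lower as well. NRF2, encoded by NFE2L2, is held and degraded through KEAP1 and, when released by oxidative stress, turns on genes of glutathione, thioredoxin, NADPH supply and detoxification through antioxidant response elements. Of 29 genes, 20 were lower (69.0%, against 9.99% of all clusters and 17.7% of genes brighter than the median) and none was higher, with a median of -0.91. Among the reductases of the aldo-keto, carbonyl and quinone families with the aldehyde dehydrogenase ALDH3A1, 7 of 8 were lower, and of the genes of glutathione and thioredoxin 6 of 8. The siControl level was near siALKBH5#1 in 8 of the 20 and between in 10.

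AKR1B10, an aldo-keto reductase, had 20448, 19253 and 15749 with siALKBH5#1, 3085, 3276 and 3057 with siALKBH5#3 and 10921, 11442 and 9167 with siControl (5.85-fold lower, 4.80 to 7.14, adjusted p = 3.62e-06). AKR1C1 had 92814, 88956 and 103517 against 27421, 24912 and 32591, with siControl at 73873, 78396 and 71322 (3.37-fold lower, adjusted p = 3e-05). AKR1C1 and AKR1C3 (1.88-fold lower) are near-identical paralogs, so their probes may share signal. SRXN1, which repairs peroxiredoxins, had 2244, 2352 and 2267 against 842, 735 and 709, with siControl at 915, 1083 and 1084 (3.01-fold lower, adjusted p = 2.2e-05), so that here the siALKBH5#1 arrays stood farther from siControl. The efflux pump ABCC2 (3.19-fold), the cystine transporter SLC7A11 (2.89-fold) and PGD of the pentose phosphate pathway (2.91-fold) were lower too. NFE2L2 had means of 8551 and 10813 (adjusted p = 0.0917) and KEAP1 of 4467 and 3914 (adjusted p = 0.296).

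The promoters of these genes were searched for the core of the antioxidant response element, TGACNNNGC, on both strands. The element shares its first letters with the AP-1 motif. The lists searched here and below name targets of the factor, so the shares with a match say nothing about the differences between the siRNAs. RefSeq promoters (GRCh38.p14, 250 bases before to 50 after the start, the first window listed for each gene) were used. They held a match for 5 of the 21 NRF2 targets with a promoter there, called or not, against 13.56% of 27305 promoters. Of the 13 called among them, 4 held a match. The windows of these 4 genes are shown for their element, in capitals, on the strand of the gene:
GCLM, chr1:93909431-93909489, minus strand: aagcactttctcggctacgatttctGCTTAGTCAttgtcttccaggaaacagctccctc
GPX2, chr14:64942834-64942892, minus strand: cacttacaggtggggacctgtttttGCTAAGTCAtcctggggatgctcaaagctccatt
CBR1, chr21:36069840-36069898, plus strand: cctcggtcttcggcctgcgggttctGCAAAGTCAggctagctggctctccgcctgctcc
PGD, chr1:10398838-10398896, plus strand: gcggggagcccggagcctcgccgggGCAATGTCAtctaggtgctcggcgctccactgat

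In all 4 the element read on the opposite strand of the gene. GCLM, a subunit of glutamate-cysteine ligase, the glutathione peroxidase GPX2 and the carbonyl reductase CBR1 had log2 differences of -0.80, -1.14 and -1.22, with siControl between in each, and PGD of -1.54. The same search with the sterol regulatory element, TCACNCCAC, found a match for 0 of the 18 called cholesterol genes with a promoter in the table, against 1.15% of all promoters. The motif is so rare over all promoters that this count shows no shortage. The 1 match among the 22 list members with a promoter was in SREBF2, which was not called.

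In the respiratory chain and glycolysis, 13 of 26 and 9 of 19 genes were lower. Of the 26 genes of the respiratory chain and ATP synthase, 13 were lower and none was higher, with a median of -0.39, and 8 to 12 were called when single arrays were left out, the fewest without siALKBH5#1 replicate 2. SDHD, the membrane anchor of succinate dehydrogenase, had 1429, 1473 and 1661 with siALKBH5#1, 673, 732 and 695 with siALKBH5#3 and 1467, 1235 and 1192 with siControl (2.17-fold lower, 1.82 to 2.59, adjusted p = 0.000155). The complex I subunits NDUFB8 (1.70-fold), NDUFB5 (1.61-fold) and NDUFA9 (1.51-fold) and the complex IV subunit COXFA4 (1.59-fold) were lower by less. Of 31 genes of hypoxia and glycolysis, 11 were lower and 4 higher, with a median of -0.16 (48.4% called). LDHA, lactate dehydrogenase, had 95567, 93065 and 81617 against 59826, 68048 and 60201 with siControl at 109681, 113778 and 93193 (1.44-fold lower, adjusted p = 0.012), and ALDOC was 2.10-fold lower. NDRG1, which hypoxia induces, was 3.48-fold lower, whereas EGLN3, an oxygen sensor that is itself a HIF target, was 2.21-fold higher, and the HIF targets outside glycolysis were divided, with 3 higher and 2 lower of 12.

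Among ATF4 target genes more were higher than lower. ATF4 is translated when amino acids are short or the endoplasmic reticulum is stressed, and turns on amino acid synthesis, uptake and tRNA charging. Of 40 genes, 19 were higher (against 10.1% of all clusters and 17.8% of genes brighter than the median), 3 were lower and 18 were not called, with a median of 0.40. In 12 of the 22 calls siControl lay beyond siALKBH5#1, so that both siRNAs lay on the same side of it and siALKBH5#3 farther. By role, 5 of 8 amino acid transporters, 5 of 7 stress outputs and 3 of 6 genes of serine, glycine and folate metabolism were higher, against 2 of 6 tRNA synthetases, 2 of 6 other amino acid enzymes and 2 of 7 factors.

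NUPR1, a stress-induced chromatin protein, had 360, 321 and 376 with siALKBH5#1, 1794, 2144 and 1842 with siALKBH5#3 and 405, 340 and 319 with siControl (5.46-fold higher, 4.52 to 6.61, adjusted p = 3.62e-06). SLC7A5, the transporter LAT1 of large neutral amino acids, had 38660, 37111 and 41066 against 86418, 89754 and 84378 with siControl at 35593, 32961 and 40171 (2.23-fold higher, adjusted p = 9.63e-05). In both, the siALKBH5#3 arrays alone were high. Its partner chain SLC3A2 was 1.38-fold higher (adjusted p = 0.0103), VLDLR, a lipoprotein receptor, 4.19-fold higher and SLC1A4, a transporter of alanine and serine, 2.38-fold higher from a dim mean of 65.2. SLC7A11, which also stands in the NRF2 list, was the largest of the 3 that were lower, with 41695, 38646 and 40915 against 14583, 14532 and 12853 and siControl at 27111, 26305 and 32143. Of 21 chaperones and other genes of the unfolded protein response, 2 were higher and 1 was lower (14.3% called, against 21.5% of all genes). CALR, the chaperone calreticulin, was 1.44-fold higher (adjusted p = 0.00978), and SEL1L and EDEM1, which serve protein degradation, were 1.44-fold higher and 1.35-fold lower. Only 1 of the list was called without siALKBH5#1 replicate 1 and 5 without siALKBH5#3 replicate 1.

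The C/EBP-ATF response element, TGATGNAA, to which ATF4 binds with a partner, was found on either strand in the promoters of 5 of the 18 called ATF4 targets with a promoter in the table, against 3.67% of all promoters. Windows of a stress factor and a stress output are shown, with the element in capitals:
ATF3, chr1:212565191-212565248, plus strand: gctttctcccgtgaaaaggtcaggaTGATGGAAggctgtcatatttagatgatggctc
CHAC1, chr15:40953237-40953294, plus strand: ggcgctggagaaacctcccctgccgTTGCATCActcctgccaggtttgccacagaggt

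ATF3, a stress-induced factor, and CHAC1, which degrades glutathione, had log2 differences of 1.01 and 0.71, both with siControl beyond siALKBH5#1. The element was also found in the promoters of ASNS, asparagine synthetase, of the alanyl-tRNA synthetase AARS1 and of the hormone FGF21, which were not called (log2 differences of 0.40, -0.05 and -0.19).

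Among ERK feedback genes and targets more were lower than higher. ERK, the last kinase of the pathway below EGFR, induces phosphatases of the DUSP family and Sprouty proteins that in turn restrain it. Of 20 genes, 10 were lower (against 9.99% of all clusters and 17.7% of genes brighter than the median), 1 was higher and 9 were not called, with a median of -0.48. The median difference from siControl was 0.42 with siALKBH5#1 and -0.15 with siALKBH5#3. In the 11 calls siControl lay between in 5, near siALKBH5#3 in 3, near siALKBH5#1 in 2 and beyond siALKBH5#1 in 1. DUSP6, the phosphatase of ERK, had 3411, 3312 and 3367 with siALKBH5#1, 605, 622 and 430 with siALKBH5#3 and 1907, 1711 and 1668 with siControl (6.17-fold lower, 4.88 to 7.81, adjusted p = 7.86e-06). ETV1, an ETS factor, had 638, 745 and 706 against 148, 138 and 130 with siControl at 465, 394 and 536 (5.02-fold lower, 4.20 to 6.01, adjusted p = 3.62e-06). Both had siControl between the siRNAs. The immediate early factor EGR1 (2.58-fold), PHLDA1 (2.40-fold) and the feedback inhibitor SPRY4 (2.37-fold) were lower. In SPRY4 siControl lay near siALKBH5#3, with means of 179, 75.9 and 86.0 for siALKBH5#1, siALKBH5#3 and siControl. The related SPRY2, named after its values were seen, was higher at means of 147 and 242 (adjusted p = 0.0143). Of 14 ERBB receptors, ligands and inhibitors, which include MET, only MET was called, 1.28-fold higher with adjusted p = 0.0397, a call that was lost whichever of the 6 arrays was left out. ERRFI1, an inhibitor of EGFR, had means of 27034 and 33917 (adjusted p = 0.0559).

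Most YAP and TEAD target genes were higher. YAP and TAZ enter the nucleus of spread or stretched cells and, with TEAD factors, turn on matricellular and cytoskeletal genes, while LATS kinases hold them back. Of 11 genes, 7 were higher (63.6%, against 10.1% of all clusters and 17.8% of genes brighter than the median) and none was lower, with a median of 0.60. CCN1 had 537, 468 and 568 with siALKBH5#1, 2128, 2216 and 2161 with siALKBH5#3 and 941, 858 and 1081 with siControl (4.15-fold higher, 3.47 to 4.97, adjusted p = 6.96e-06). ANKRD1 had 147, 143 and 123 against 452, 500 and 595 with siControl at 122, 183 and 145 (3.73-fold higher, adjusted p = 2.35e-05). LATS2, both a target and an inhibitor of YAP, and CRIM1 were 4.13-fold and 3.88-fold higher with siControl between, and PTPN14 was 1.80-fold higher with siControl near siALKBH5#1.

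The TEAD motif, GGAATG, was found on either strand in the promoters of 4 of the 8 members with a promoter in the table, against 14.05% of all promoters. All 4 were among the 5 called. The windows of 3 of them that lie upstream of the start are shown, with each motif in capitals:
CCN2, chr6:131951437-131951566, minus strand: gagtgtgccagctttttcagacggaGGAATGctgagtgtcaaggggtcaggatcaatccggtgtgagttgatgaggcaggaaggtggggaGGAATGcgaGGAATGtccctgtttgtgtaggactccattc
ANKRD1, chr10:90921185-90921332, minus strand: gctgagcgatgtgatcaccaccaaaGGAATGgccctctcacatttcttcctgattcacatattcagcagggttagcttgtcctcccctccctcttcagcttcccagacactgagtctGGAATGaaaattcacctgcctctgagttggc
PTPN14, chr1:214551772-214551827, minus strand: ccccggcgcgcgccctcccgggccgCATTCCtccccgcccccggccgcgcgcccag

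The window of CCN2, which encodes connective tissue growth factor, holds 3 copies and that of ANKRD1 holds 2, while that of PTPN14 has 1 on the opposite strand. Their log2 differences were 0.60 and 1.90, and that of PTPN14 was 0.85.

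Of 23 genes of the TGF-beta pathway, 6 were higher and 2 lower, with a median of 0.15. The 34.8% called was near the 35.5% of genes brighter than the median. SKIL, a repressor of SMAD factors that TGF-beta induces, had 803, 640 and 672 with siALKBH5#1, 3513, 4665 and 3725 with siALKBH5#3 and 2243, 2200 and 2064 with siControl (5.61-fold higher, 4.48 to 7.04, adjusted p = 8.49e-06). INHBA, the subunit of activin A, had 4605, 3766 and 3982 against 12857, 16692 and 17605 with siControl at 6133, 6075 and 5413 (3.80-fold higher, adjusted p = 3.27e-05). The ligand TGFB1 itself was 1.62-fold lower (adjusted p = 0.00392), with siControl near siALKBH5#3.

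Of 42 mesenchymal and matrix genes, 13 were higher and 5 lower, with a median of 0.13 (42.9% called, against 21.5% of all genes and 35.5% of genes brighter than the median). Among the 9 of cytoskeleton and adhesion, 7 were higher and 2 lower, whereas 0 of the 7 transcription factors of mesenchymal transition were called by limma (1 at an unadjusted p under 0.05). TAGLN, an actin-binding protein of smooth muscle, had 50.2, 53.1 and 55.9 against 246, 254 and 181 with siControl between at 101, 86.8 and 91.1 (4.23-fold higher, adjusted p = 2.13e-05). Most matrix genes were not called. Of 11 collagens 2 were higher, 2 were lower and 7 were not called. Of 15 other matrix genes 4 were higher, 1 was lower and 10 were not called. The largest differences among matrix genes went both ways, with FN1 and THBS1 higher and COL8A1 and LOX lower.

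Of 34 epithelial genes, 12 were higher and 4 lower, with a median of 0.18 (47.1% called, against 21.5% of all genes and 35.5% of genes brighter than the median). In 11 of the 16 calls siControl lay between. CDH1, the E-cadherin of adherens junctions, had 5368, 3836 and 4490 with siALKBH5#1, 9334, 9264 and 12053 with siALKBH5#3 and 8870, 8329 and 6063 with siControl (2.24-fold higher, 1.75 to 2.87, adjusted p = 0.000844). The tight junction protein OCLN was 1.92-fold higher (adjusted p = 0.0024). MUC1, a membrane mucin, was 2.02-fold higher at dim levels (means 79.5 and 161), with siControl at 205. Of the 11 junction genes 4 were higher and none was lower, with a median of 0.17. Of the 7 surface proteins and proteases 4 were higher and 2 lower, CEACAM5 and CEACAM6, with a median of 0.59.

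Of 30 squamous and keratinocyte genes, 9 were higher and 1 lower (33.3% called, against 35.5% of genes brighter than the median). The protease inhibitor SLPI was 2.40-fold higher (adjusted p = 7.19e-05), KRT5, a basal keratin, 1.81-fold higher and the kallikrein KLK7 1.83-fold higher. PI3, the elastase inhibitor elafin, was the one that was lower, with 4160, 3868 and 3659 against 1303, 1297 and 1459, while siControl lay lower still at 750, 668 and 589 (2.88-fold, adjusted p = 2.78e-05). Of 21 lung lineage genes, the endoderm factor GATA6 was 1.80-fold higher and the pioneer factor FOXA1 1.71-fold lower.

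Genes of the NF-kB pathway were higher, while most of its chemokine and cytokine targets were not called. NF-kB factors are kept in the cytoplasm by inhibitor proteins, several of which they induce themselves. Of 25 genes, 11 were higher and 2 lower, with a median of 0.25 (52.0% called, against 21.5% of all genes and 35.5% of genes brighter than the median). Of the 14 chemokines and cytokines among them, 2 were higher, 2 were lower and 10 were not called, with a median of -0.1. All 6 members of the pathway proper, its subunits and inhibitors, were higher, and RELB had 96.3, 75.4 and 154 with siALKBH5#1, 320, 257 and 240 with siALKBH5#3 and 164, 187 and 229 with siControl (2.60-fold, adjusted p = 0.00291). IL6, an inflammatory cytokine, had 144, 114 and 89.4 against 372, 536 and 551 with siControl at 202, 165 and 202 (4.21-fold higher, 3.08 to 5.78, adjusted p = 0.000135). IL1B, another, had 471, 547 and 483 against 176, 131 and 140 with siControl at 347, 349 and 433 (3.38-fold lower, adjusted p = 3.76e-05). The adhesion molecule ICAM1 was 3.37-fold higher with siControl near siALKBH5#1.

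Since siRNAs are double-stranded RNA, the sensors of such RNA and the interferon response were described too. Of 10 RNA sensors and adaptors, 0 were called by limma (1 at an unadjusted p under 0.05). By the methods' t-test with the added Benjamini-Hochberg adjustment 0 were called. EIF2AK2, the kinase PKR, had means of 7908, 7307 and 7244 with siALKBH5#1, siALKBH5#3 and siControl. Of 36 interferon response genes, 7 were higher and 3 lower with a median of -0.02, and 5 were called without siALKBH5#1 replicate 2 and 6 without siALKBH5#3 replicate 2 or 3. The 27.8% called lay between the 21.5% of all genes and the 35.5% of genes brighter than the median. IRF1 was 2.27-fold higher and EPSTI1 2.09-fold higher, both at dim levels, and the antiviral OAS1 was 2.03-fold lower (adjusted p = 0.000332). Of 12 genes of the RNA interference machinery, AGO2, the AGO protein that cuts, had 1302, 1325 and 1494 with siALKBH5#1, 2924, 4031 and 3947 with siALKBH5#3 and 1007, 1204 and 1212 with siControl (2.62-fold higher, 2.09 to 3.29, adjusted p = 0.000197). AGO4 was 1.5-fold higher and PRKRA, a partner of Dicer, 1.62-fold lower.

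Of 13 genes of MHC class I presentation, 5 were higher and 1 lower (46.2% called, against 21.5% of all genes and 35.5% of genes brighter than the median). Only 3 were called without siALKBH5#3 replicate 2 or 3. The 3 heavy chains measured and their light chain B2M were all higher, HLA-F 1.71-fold, HLA-E 1.62-fold and B2M 1.3-fold, the last a call that was lost without each of 5 single arrays. Heavy chain genes are alike in sequence, so their probes may share signal. The peptide transporter TAP1 was 1.49-fold lower (adjusted p = 0.00915).

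More proliferation genes were lower than higher, in numbers that moved with single arrays. The share called in either direction was 31.1% for G1/S and DNA replication and 35.0% for G2/M and mitosis. Neither was above the 35.5% called among genes brighter than the median (17.7% lower). For G1/S and DNA replication the median difference from siControl was 0.3 with siALKBH5#1 and 0.04 with siALKBH5#3. Between the siRNAs 11 of its 45 genes were lower and 3 higher, with a median of -0.26. Without single arrays 6 to 12 of them were called, 6 without siALKBH5#1 replicate 1, 9 without its replicate 2 or 3, and 8 and 7 without siALKBH5#3 replicates 2 and 3. With the replicate number as a block 9 were called. CHAF1B, a subunit of the chromatin assembly factor, had 2434, 2334 and 1777 with siALKBH5#1, 617, 771 and 588 with siALKBH5#3 and 1652, 1255 and 1207 with siControl (3.30-fold lower, adjusted p = 9.59e-05). The phosphatase CDC25A was 2.17-fold higher and cyclin E2, CCNE2, 1.81-fold higher. Of 40 genes of G2/M and mitosis, 11 were lower and 3 higher, with a median of -0.21. Against siControl the median was -0.04 with siALKBH5#1 and -0.28 with siALKBH5#3. When any of the siALKBH5#1 arrays was left out 8 were called, against 9 without siALKBH5#3 replicate 1 or 2, and 9 with the block. PTTG1, securin, had 5451, 6113 and 6960 against 3236, 3217 and 2792 with siControl at 5687, 6058 and 7219 (2.00-fold lower, adjusted p = 0.000641). Of 15 G1 regulators 1 was called, lower, and the brightest, CDK4 and CCND1, had means of 16816 and 13622 (adjusted p = 0.0878) and of 14366 and 11900 (adjusted p = 0.114).

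Of 24 p53 target genes, 4 were higher and 2 lower. The share called lay between the 21.5% of all genes and the 35.5% of genes brighter than the median. The death receptor TNFRSF10B had 517, 610 and 565 with siALKBH5#1, 997, 1190 and 1429 with siALKBH5#3 and 683, 779 and 599 with siControl (2.12-fold higher, 1.68 to 2.67, adjusted p = 0.000844). TP53INP1 was 1.93-fold higher at dim levels, with both siRNAs below siControl. Of 25 apoptosis regulators, 5 were higher and 5 lower. The share called was only a little above the 35.5% of genes brighter than the median, with as many higher as lower. The inducer BCL2L11, BIM, was 1.74-fold higher (adjusted p = 0.00118), while the inhibitor BCL2L1, BCL-XL, was 1.64-fold lower (adjusted p = 0.00335). The BCL2L1 means of both siRNAs lay above that of siControl, but the arrays of siALKBH5#3 and siControl overlapped. APAF1, the core of the apoptosome, had 171, 138 and 183 against 93.2, 113 and 102, with siControl above both at 273, 336 and 310 (1.59-fold lower, adjusted p = 0.00777).

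The study had selected 10 genes on these samples for their response to ALKBH5 depletion. Of these, 1 was called between the siRNAs, or 2 without siALKBH5#1 replicate 2 or 3. GADD45A, a stress gene of growth arrest, had 3381, 2859 and 3381 with siALKBH5#1, 4685, 4472 and 5446 with siALKBH5#3 and 2279, 1843 and 2207 with siControl (1.52-fold higher, 1.24 to 1.85, adjusted p = 0.00857). The other 9 had log2 differences between -0.53 and 0.40, with E2F1 at means of 603, 798 and 258 for siALKBH5#1, siALKBH5#3 and siControl, CCNG2 at 892, 619 and 1879 and CDKN1A at 927, 1050 and 604. In each of the 10 both siRNAs lay on the same side of siControl. The list was chosen for that property, so the side is no independent evidence.

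Of 26 genes of lysosome and autophagy, 4 were higher and 4 lower (30.8% called, against 35.5% of genes brighter than the median). The galactosidase GLA was 3.72-fold lower (means 2792 and 758, siControl 1380, adjusted p = 3.29e-05), and GABARAPL1, which builds autophagosomes, 2.23-fold higher (6870 and 15309, siControl 5910, adjusted p = 0.000557). Of 26 ribosome biogenesis factors, 3 were higher and 2 lower, led by WDR12 (1.79-fold lower) and DDX21 (1.67-fold higher). The 19.2% called in this list was under the 21.5% of all genes. Of 14 cytosolic ribosomal proteins 1 was called, and RPL18 and RPS16 had adjusted p of 0.356 and 0.717. Of 11 reference genes, 3 were lower and 1 higher (36.4% called, near the 35.5% of genes brighter than the median). These were B2M as above, the glycolytic PGK1 (1.59-fold lower), and GUSB and TFRC (1.56-fold and 1.31-fold lower). Only 1 of the 4 was called without siALKBH5#1 replicate 1 or 2 or siALKBH5#3 replicate 3, and 2 without siALKBH5#3 replicate 1 or 2.

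Among the 5 brightest calls in each direction, named by their mean intensity, HMGA1, a chromatin protein, had 108060, 102123 and 100273 against 62573, 68913 and 72950 with siControl between at 84432, 81833 and 85651 (1.52-fold lower, adjusted p = 0.00432). Thioredoxin, TXN, was 1.51-fold lower (adjusted p = 0.00914).

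The labelled line was checked against its markers. EPCAM and the keratins of simple epithelium were among the brightest clusters, with KRT8 at means of 114796, 116353 and 119617 and KRT19 at 74549, 84769 and 88798 with siALKBH5#1, siALKBH5#3 and siControl. Of 8 markers of lung adenocarcinoma epithelium, 2 lay under the 50th percentile in each group, NKX2-1 at means of 30.3, 38.5 and 37.3 and NAPSA at 14.9, 16.5 and 14.0. Of 9 immune markers 8 lay under it in each group, the exception being the lysosomal CD68 at 5727, 4552 and 3551, and 7 of 8 fibroblast markers did. Of 8 endothelial markers 8 lay under it with either siRNA and 6 with siControl. The summed intensity of the immune markers, most of it CD68, ranged from 5459 to 6889 with siALKBH5#1, 4603 to 4990 with siALKBH5#3 and 3666 to 4001 with siControl, that of the fibroblast markers from 356 to 431, 389 to 462 and 415 to 456, and that of the endothelial markers from 319 to 347, 356 to 377 and 388 to 503. The part of other cell types in the differences was not tested. Calls between the siRNAs were made for CDH1 among the epithelial, CD14 among the immune and CDH5 among the endothelial markers, the last at means of 33.6 and 69.9.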

How the data were processed

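The authors hybridised total RNA of PC9 cells to Clariom S arrays. The authors deposited linear intensities, with a value for each cluster on each array and no pooling of replicates. The submitters' processing notes name RMA, Affymetrix Expression Console and hg38, whereas the methods name another tool of the array service for normalization, so the step that gave the final scale is not settled. Values normalized between arrays cannot show a change in the RNA content of cells, and dim folds may be compressed.

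Of 24351 entries, 2903 control probe sets were left out and 21448 clusters tested, with no filter and no pseudocount. Of these, 17709 had 1 gene symbol in the array annotation, 0 had several and 3739 had none. The Entrez IDs of all 17709 matched RefSeq (GRCh38.p14), giving 17687 genes. The log2 of each intensity was fitted with limma 3.58.1 in R 4.3.3 (lmFit, eBayes) over the 6 arrays of both siRNAs, with 4 residual and 5.447 prior degrees of freedom, two-sided tests and Benjamini-Hochberg adjustment over all clusters. The number of arrays limits the precision. Differences are siALKBH5#3 minus siALKBH5#1, and folds are ratios of geometric means with 95% confidence intervals, while group means are arithmetic. The fit was tested on simulated data.

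A gene stands by its cluster of highest mean intensity. Named genes were ALKBH5, the 15 highest and 15 lowest called genes without overlap of arrays, the 8 in each direction with siControl farthest between, up to 5 called members of each of 38 lists (or the 2 brightest where fewer than 2 were called), the 10 genes of the study, called m6A genes and the 5 brightest calls in each direction. Other genes named are list members taken for their role or after their values were seen. The members and lists were chosen with earlier results of these data known, and lists are described by counts and medians with no test. Of 878 list entries 790 were measured. Alternatives covered the model, normalization, brightness, thresholds and each array left out.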

Additional observations from a re-analysis of the deposited data

Results flagged for a closer look

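In 71 of the 189 genes that the naming rule took, every array of siALKBH5#1 lay on 1 side of all siControl arrays and every array of siALKBH5#3 on the other, so that siRNAs against the same gene stood on opposite sides of the same control. The test made was that between the siRNAs, and the distances to siControl were not tested. Part of these genes had been selected for siControl lying between, so their number is no evidence by itself. Groups of 3 arrays are too small for a check of single outlying arrays.

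Of these genes 32 were higher with siALKBH5#3, with log2 differences between the siRNAs of 4.72 for VTCN1, 3.57 for TFPI2, 3.21 for IGFBP5, 3.11 for DDAH1, 3.02 for IL32, 2.76 for HEG1, 2.66 for NEK7, 2.56 for ARID5B, 2.55 for CD24, 2.50 for THBS1, 2.49 for ID3, 2.49 for SKIL, 2.46 for CLIC3, 2.19 for MYL9, 2.08 for TAGLN and 2.08 for IL6. The smaller of these differences were 2.07 for VLDLR, 2.05 for CCN1, 2.05 for LATS2, 1.95 for CRIM1, 1.92 for INHBA, 1.75 for ICAM1, 1.38 for RELB, 1.26 for SLPI, 1.16 for CDH1, 0.94 for OCLN, 0.88 for BECN1, 0.74 for DDX21, 0.69 for HLA-E, 0.58 for AGO4, 0.53 for CALR and 0.38 for PA2G4.

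The other 39 were lower with siALKBH5#3, with log2 differences of -4.43 for F2RL2, -4.32 for TCN1, -3.47 for CEACAM5, -3.08 for SLC5A11, -3.05 for ABHD3, -3.01 for CAPN8, -3.00 for TMEM255A, -2.88 for SLC7A8, -2.86 for ANXA10, -2.81 for SPP1, -2.79 for CYP4F3, -2.67 for PAQR5, -2.66 for GRPR, -2.65 for CA12, -2.63 for DUSP6, -2.62 for STEAP1, -2.55 for AKR1B10, -2.44 for HSD17B7, -2.40 for ACSS2 and -2.33 for ETV1. The differences nearer to 0 were -1.90 for GLA, -1.76 for IL1B, -1.75 for AKR1C1, -1.72 for CHAF1B, -1.68 for ACAT2, -1.68 for ABCC2, -1.66 for CYP51A1, -1.66 for CEACAM6, -1.59 for SRXN1, -1.55 for HMGCS1, -1.53 for SLC7A11, -1.26 for PHLDA1, -1.02 for ALKBH2, -1.02 for OAS1, -0.84 for WDR12, -0.83 for CTSL, -0.68 for NDUFB5, -0.67 for COXFA4 and -0.60 for HMGA1.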

How the results depend on the processing

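The count of 4299 calls was 4097 with all 9 arrays in the model, 5279 with an intensity trend and robust prior, 4970 without dim clusters, 4350 after quantile normalization, 4306 after median centring and 3206 to 3699 with 1 array left out. It was 2714 at over 1.5-fold, 829 at over 2-fold, 2672 by the methods' t-test after Benjamini-Hochberg adjustment and 2028 by that test at its own threshold. ALKBH5 kept its direction throughout (-1.27 to -1.73 without single arrays). Its difference of -1.45 missed the threshold in the t-test (adjusted p = 0.0543), and it was too dim to be tested without dim clusters. With wider limits for near (1/3 of the distance), the siControl level was near siALKBH5#1 in 40.5% of calls, between in 27.0% and near siALKBH5#3 in 21.8%, and all 3 siControl arrays lay inside the gap in 20.7%.

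Replicate numbers are shared across groups but do not pair the arrays. Deviations from the group means correlated at -0.147, -0.045 and -0.076 between arrays of the same number. With the replicate number as a block 3605 clusters were called.

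Of the other 164 called genes named by the rule, 0 reversed, 145 stayed called in every alternative that could test them apart from the t-test, 36 lost the call in the t-test, 12 with the block and 19 without single arrays, each of them without 2 or more of the 6. The last were ALKBH7, RBM15B, PCIF1, YTHDC1, NR1H3, SEL1L, EDEM1, MET, LIG1, ECT2, IFI44L, PSMB10, B2M, BMF, GUSB, TFRC, PA2G4, ACTN1 and PRDX1. The calls in the lists ranged without single arrays from 16 to 19 for cholesterol genes (20 with all arrays), 18 to 19 for NRF2 targets (20), 17 to 24 for ATF4 targets (22), 10 to 11 for ERK targets (11) and 6 to 7 for YAP and TEAD targets (7). By the t-test the calls fell by over 1.5 times in the ALKBH family (4 to 1), m6A writers (3 to 1), m6A readers (2 to 1), ATF4 targets (22 to 14), p53 targets (6 to 2), G1/S genes (14 to 8), NF-kB genes (13 to 7), interferon genes (10 to 5), RNA interference (3 to 1), MHC class I (6 to 3), the TGF-beta pathway (8 to 4) and the respiratory chain (13 to 8), and rose from 1 to 3 for ERBB receptors and ligands. They also fell for lung lineage genes (2 to 1). They fell from 1 to 0 for the genes selected by the study, cytosolic ribosomal proteins and the markers of immune and endothelial cells. Medians of 8 lists, none over 0.11 in size, changed sign in 11 of 531 recomputed values. The cause of these changes was not tested.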
